A study of Mus musculus with 15 samples.

Results

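miR-574 and miR-423 are 2 microRNA (miRNA) hairpins whose arms were read in opposite proportions in the plasma of septic and sham-operated mice. They were taken by name as 4 entries (mmu-miR-574-5p, mmu-miR-574-3p, mmu-miR-423-5p and mmu-miR-423-3p, written below without the species prefix) of the 1205 entries in the deposited count table. They had been picked because the ratio of 5p to 3p counts differed between the groups in these same libraries, so the ratios, the levels of the 4 arms and their differences between groups are given below as description, without a test. All 4 passed the filter on low counts that 426 entries passed. Of those 426, 93 hairpins had each arm as an entry of its own, and they serve as the background.

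Platelet-free plasma was drawn 24 h after surgery from male, wild type C57BL/6J mice. The sham group holds 6 libraries. The CLP group holds 9 libraries from mice that underwent cecal ligation and puncture, an operation that lets gut bacteria into the abdomen and models polymicrobial sepsis. The labels do not say that each library is a separate animal, so spreads and p-values refer to these libraries, and part of the spread may be technical. Totals ran from 5274676 to 13576482 counts per library. Plasma collects RNA from many organs, so a lower count cannot tell fewer releasing cells from less RNA released per cell.

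A miRNA gene is transcribed into a precursor that folds back on itself, and the hairpin is cut by Drosha and then Dicer into a short duplex. One strand of the duplex is usually kept by an Argonaute protein and guides it to messenger RNAs, while the other strand is mostly discarded. The kept arm is known to differ between tissues for some hairpins. In plasma, mature miRNAs travel bound to Argonaute or inside vesicles. miR-423-5p is widely used as a reference miRNA in plasma assays, and miR-574-5p, a run of alternating G and U, has been described as a decoy for the RNA-binding protein CUGBP1.

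The 4 mature sequences are shown because the arm ratios set the members of each pair against each other. They come from RefSeq on GRCm38.p6, 5′ to 3′, with the seed (bases 2 to 8, which pair with targets) in capitals.
miR-574-5p: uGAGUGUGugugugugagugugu
miR-574-3p: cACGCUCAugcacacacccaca
miR-423-5p: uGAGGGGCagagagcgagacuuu
miR-423-3p: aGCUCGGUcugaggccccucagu

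No 2 of the 4 share a seed. Among 1679 mature miRNAs in the RefSeq table, 1 other shares the seed of miR-423-5p, miR-6921-5p (uGAGGGGCaugagguaggaagc), and none shares that of the other arms. miR-6921-5p had reads in CLP 5 alone of the 15 libraries, at 0.264 CPM, so it was not tested (CPM scales a count by the library size as adjusted by TMM, a method that centres the bulk of log ratios between libraries). miR-574-5p is 47.8% G and 43.5% U with no C, whereas in miR-574-3p C is the commonest base and A makes up 31.8%. Purines made up 69.6% of miR-423-5p and 43.5% of miR-423-3p. GC content was 47.8% and 59.1% for the 5p and 3p arms of miR-574, and 56.5% and 65.2% for those of miR-423, so in each hairpin the 3p arm held more GC.

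The precursors are shown with the mature arms in capitals.
miR-574 hairpin: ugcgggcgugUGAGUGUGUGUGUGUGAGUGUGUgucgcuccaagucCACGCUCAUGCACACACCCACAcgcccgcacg
miR-423 hairpin: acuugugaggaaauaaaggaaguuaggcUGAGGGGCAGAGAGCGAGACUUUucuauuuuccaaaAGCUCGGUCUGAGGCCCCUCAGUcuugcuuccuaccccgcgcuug

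In both, 13 bases lie between the arms. Mir574 (ENSMUSG00000077042.2) occupies chr5:64970318-64970395 on the plus strand of GRCm38 and lies in the first intron of Fam114a1. Mir423 (ENSMUSG00000065518.2) occupies chr11:77078064-77078172 on the minus strand, in the first intron of Nsrp1, which codes for a splicing regulator of nuclear speckles. The precursors share a position close to the start of the host gene in the GENCODE M21 annotation, 247 bases from it for Mir574 and 263 for Mir423. Of 969 mouse miRNA genes inside a protein-coding gene on the same strand, 37 (3.82%) lie within 300 bases of its start, a bound chosen after these distances were seen. No other miRNA gene lies within 10 kb of either.

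In sham plasma miR-574 was read almost wholly as its 3p arm. miR-574-3p stood at 178, 150.3, 189, 97.3, 114.5 and 108.6 CPM in sham 1 to 6. In CLP 1 to 9 it stood at 5.35, 7.29, 9.16, 5.58, 9.87, 4.11, 11.01, 6.85 and 5.04 CPM. The highest CLP library thus lay far below the lowest sham library. Sham averaged 139.6 ± 38.5 CPM (SD, n = 6) and CLP 7.14 ± 2.39 CPM (n = 9), and the edgeR log2 fold change was -4.28 ± 0.25 (SE). Every CLP library lay below every sham library for 11.3% of the 426 tested miRNAs. Of the 4 arms, only miR-574-3p had counts that were not whole numbers, in 3 libraries.

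The other arm went the opposite way and was scarce in both groups. miR-574-5p stood at 7.33, 4.74, 6.72, 5.02, 9.48 and 4.73 CPM in sham 1 to 6. In CLP 1 to 9 it stood at 6.55, 6.01, 12.1, 11.7, 29.4, 11.9, 11.9, 19.1 and 6.78 CPM. The groups overlapped: 6 of 9 CLP libraries exceeded every sham library, while CLP 1, CLP 2 and CLP 9 lay within the sham range. Sham averaged 6.34 ± 1.89 CPM (SD, n = 6) and CLP 12.8 ± 7.43 (n = 9), with a log2 fold change of 1.02 ± 0.34 (SE), or 0.71 without CLP 5. These values rest on 30 to 71 reads per sham library and 33 to 334 per CLP library.

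miR-423 showed the mirror image at a far higher level, with at least 611 reads of each arm in every library. miR-423-5p stood at 5619, 4150.3, 2769, 3606, 4185 and 4917 CPM in sham 1 to 6. In CLP 1 to 9 it stood at 105.4, 152.2, 626.2, 275.4, 2172, 175.9, 474.3, 698.8 and 151.1 CPM. All CLP libraries lay below the lowest sham library, and CLP 5 was the nearest to it. Sham averaged 4208 ± 993 CPM (SD, n = 6) and CLP 536.8 ± 651.4 (n = 9), with a log2 fold change of -2.97 ± 0.57 (SE), or -3.73 without CLP 5. The arm that led in sham was thus the one whose groups did not overlap in each hairpin.

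Its partner miR-423-3p stood at 969.9, 651.0, 480.6, 557.2, 646.1 and 821.4 CPM in sham 1 to 6. In CLP 1 to 9 it stood at 625.8, 844.6, 1176, 1597, 741.3, 877.8, 681.3, 1157 and 692.7 CPM. Of these, CLP 3, CLP 4 and CLP 8 exceeded every sham library. Every CLP library lay above every sham library for 8.45% of the 426 miRNAs, but not for miR-423-3p or miR-574-5p. Sham averaged 687.7 ± 179.2 CPM (SD, n = 6) and CLP 932.7 ± 318.9 (n = 9), a log2 fold change of 0.44 ± 0.23 (SE). That value was 0.22 with scaling by library size alone, 0.26 without CLP 4 and 1.01 with the GC trend of each library removed. Its size thus depended on the scaling, on CLP 4 and on the GC trend, while its sign did not in these settings.

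**Figure D1:**
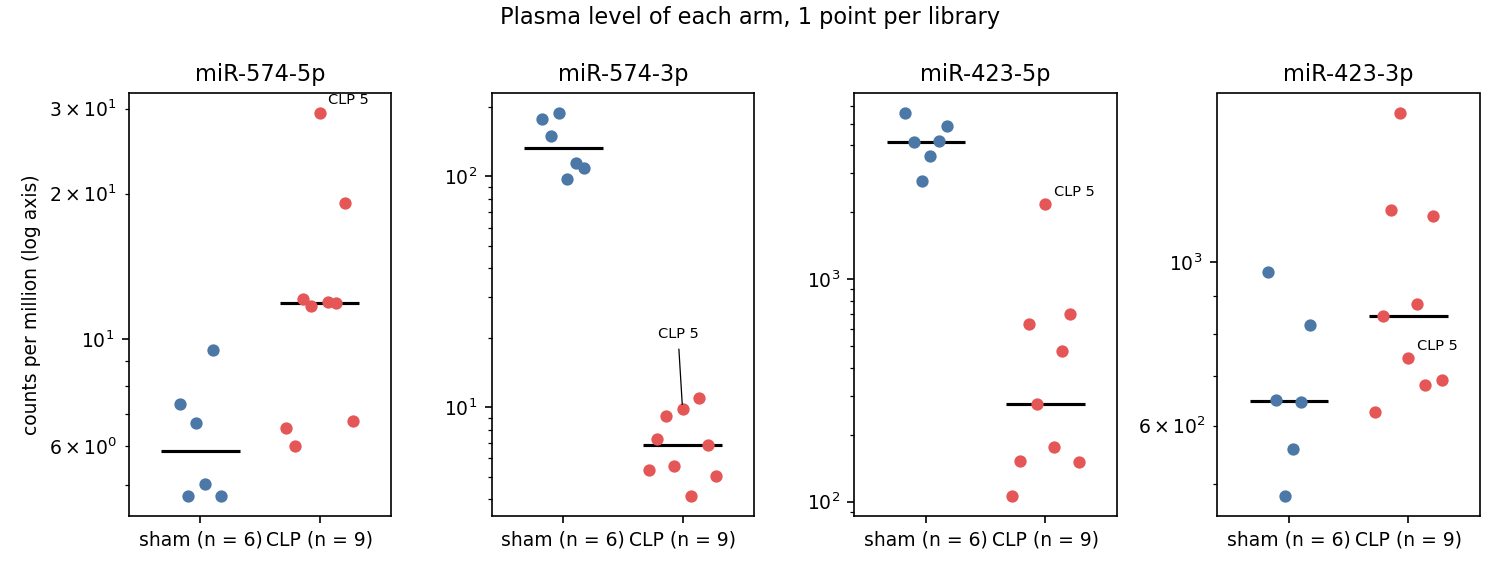
Level of each arm in CPM on a log axis, 1 point per library, with the group median as a bar (sham, n = 6, and CLP, n = 9) and an axis range of its own in each panel. miR-574-3p and miR-423-5p are lower in all CLP libraries than in any sham library, while the ranges of miR-574-5p and miR-423-3p overlap between the groups.

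Within each hairpin the 2 arms thus had log2 fold changes of opposite sign, as was found for 37.6% of the 93 hairpins. Because the arm that led in sham was the one that was lower in CLP, the level of the hairpin as a whole was lower too. The 2 arms of miR-574 summed to 145.9 ± 38.8 CPM in the 6 sham libraries (SD) and to 19.98 ± 8.79 in the 9 CLP libraries. Those of miR-423 summed to 4895 ± 1169 CPM in sham and 1470 ± 701.8 in CLP.

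The share of a hairpin's reads that came from its 5p arm needs no scaling between libraries. Adapter ligation favours some sequence ends, so a share is of reads and not of molecules, but the same pair of sequences is compared in every library. For miR-574 the 5p share was 3.96%, 3.06%, 3.44%, 4.90%, 7.64% and 4.17% in sham 1 to 6. In CLP 1 to 9 it was 55.1%, 45.2%, 57.0%, 67.9%, 74.9%, 74.4%, 52.0%, 73.7% and 57.3%. The sham mean was 4.53% ± 1.65 (SD, n = 6) and the CLP mean 61.9% ± 11.002 (n = 9), with no overlap.

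For miR-574, the 3p arm led in all 6 sham libraries, and the 5p arm led in 8 of 9 CLP libraries. The Wilson 95% interval was clear of 50% in 5 of these, CLP 3, 4, 5, 6 and 8. In CLP 1 the 38 reads of the 5p arm and 31 of the 3p arm gave an interval of 43.4% to 66.2%, and in CLP 2 it ran from 34.3% to 56.6%. In CLP 7 and CLP 9 it also spanned 50%. Which arm led in CLP 1, 2, 7 and 9 was therefore not detectable at this depth. These intervals cover counting error only, since reads were amplified by PCR.

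For miR-423 the 5p share was 85.3%, 86.4%, 85.2%, 86.6%, 86.6% and 85.7% in sham 1 to 6. In CLP 1 to 9 it was 14.4%, 15.3%, 34.7%, 14.7%, 74.6%, 16.7%, 41.0%, 37.7% and 17.9%. The sham libraries lay within a narrow band, with a mean of 86.0% ± 0.66 (SD, n = 6), and the CLP libraries were spread widely, with a mean of 29.7% ± 20.01 (n = 9). Every interval was clear of 50%. The 3p arm led in 8 of 9 CLP libraries, and in CLP 5 the 5p arm still led, with 24663 reads against 8416. The description of an arm reversal therefore held for miR-423 in all CLP libraries but CLP 5, and for miR-574 in the 5 libraries in which the counts could tell.

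**Figure D2:**
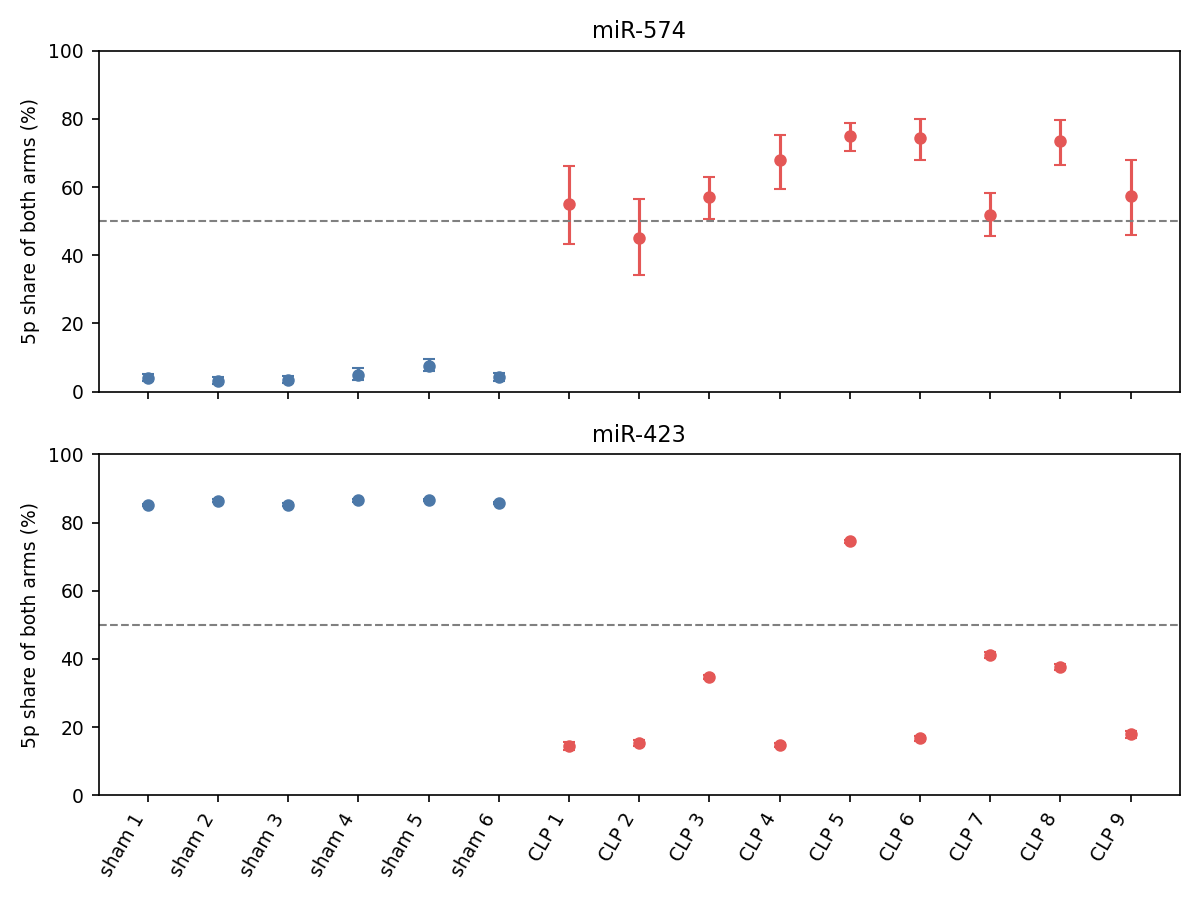
Share of each hairpin's reads that came from the 5p arm, in percent, for each library, with Wilson 95% intervals and a dashed line at 50%. The sham libraries sit between 3.06% and 7.64% for miR-574 and between 85.2% and 86.6% for miR-423, and CLP 5 is the only CLP library above 50% for miR-423.

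On the log2 scale, with 0.5 added to each count, the ratio of 5p to 3p of miR-574 averaged -4.45 ± 0.49 (SD) over the 6 sham libraries and 0.73 ± 0.69 over the 9 CLP libraries. The means differed by 5.18 (36.3-fold on the linear scale), or by 5.08 without CLP 5. That of miR-423 averaged 2.62 ± 0.08 in sham and -1.41 ± 1.39 in CLP, and the means differed by -4.03 (16.3-fold), or by -4.40 without CLP 5. Neither hairpin's groups overlapped, as was found for 19.4% of the 93 hairpins. The median difference over the 93 was 0.00 and the median of its size was 0.86. The size of the difference ranked 1 for miR-574 and 3 for miR-423, with miR-877 between them at -4.29. The groups of miR-877 overlapped, and its 3p arm averaged only 1.76 CPM. By edgeR's estimate of the same change miR-877 stood at -4.08 and miR-423 at -4.10, so the order of these hairpins depended on the measure.

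The leading arm by group medians differed between sham and CLP for 12 of the 93 hairpins (12.9%), from 3p in sham to 5p in CLP for 8, miR-574 among them, and from 5p to 3p for 4, miR-423 among them. Arm ratios differed widely in these libraries. By edgeR's quasi-likelihood test of the arm by group term with Benjamini-Hochberg adjustment, 49 of the 93 hairpins (52.7%) had an adjusted p under 0.05, 25 towards 5p (26.9%) and 24 towards 3p (25.8%) in CLP. Both hairpins are among the 49, from which nothing is read, since they were chosen on this contrast.

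For hairpins with at least 10 CPM in each arm, shifts are given as edgeR's log2 estimates of the arm by group term, not as differences of mean ratios. The largest shifts towards 3p after miR-423 were those of miR-191 (-3.73 ± 0.24, SE), miR-434 (-3.47 ± 0.39) and miR-25 (-2.08 ± 0.41). The largest shifts towards 5p after miR-574 were those of miR-222 (2.38 ± 0.39), miR-223 (2.37 ± 0.21) and miR-335 (2.21 ± 0.38). The edgeR adjusted p of these 6 ran from 1.11e-10 for miR-191 to 0.000358 for miR-25. In miR-191, whose 5p arm led by a median log2 ratio of 8.25 in sham, the 5p arm still led by 4.43 in CLP. In miR-434 the leading arm changed, from a median of 0.51 to -2.73.

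**Figure D3:**
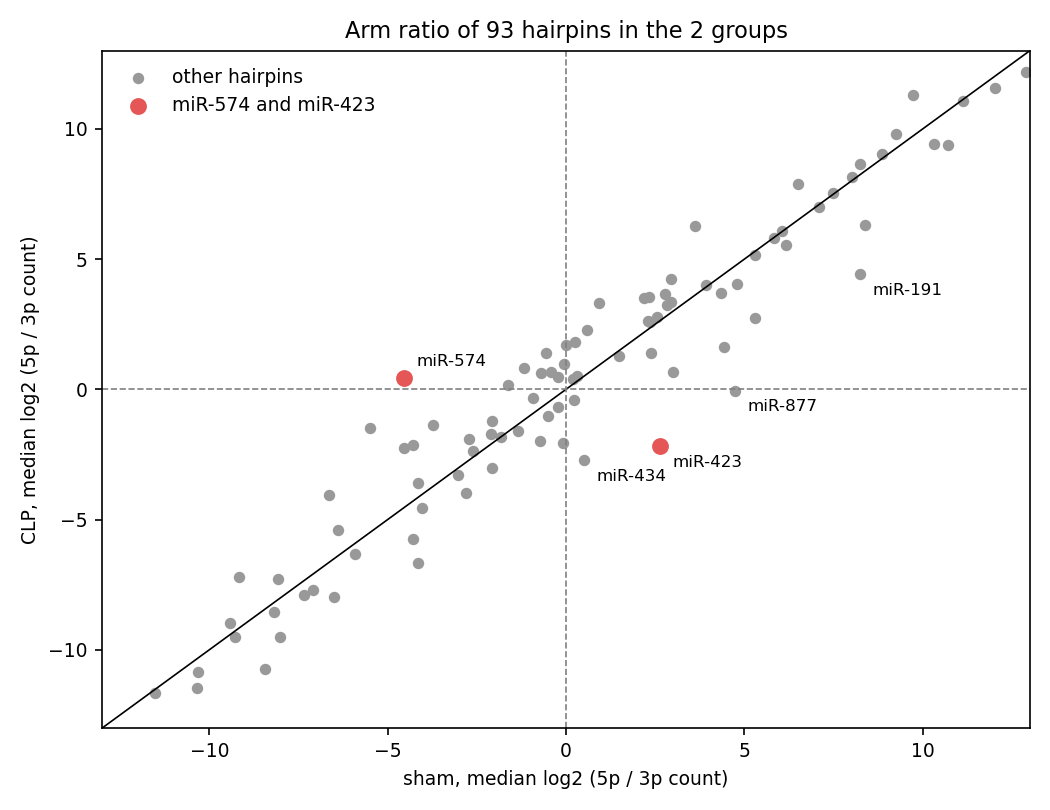
Median log2 ratio of 5p to 3p counts in sham (horizontal) against CLP (vertical) for 93 hairpins, with the line of equality in black and dashed lines where the arms are equal. miR-574 lies in the upper left (3p led in sham, 5p in CLP) and miR-423 in the lower right (5p led in sham, 3p in CLP), both far from the line.

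The CLP libraries left gaps in the ratios of both hairpins. For miR-574, 5 libraries (CLP 1, 2, 3, 7 and 9) lay between -0.27 and 0.42 on the log2 scale and 4 (CLP 4, 5, 6 and 8) between 1.06 and 1.57. For miR-423, 5 libraries (CLP 1, 2, 4, 6 and 9) lay between 14.4% and 17.9% in 5p share, 3 (CLP 3, 7 and 8) between 34.7% and 41.0%, and CLP 5 at 74.6%. The 2 hairpins thus divided the libraries differently. In the miR-423 division the first 5 held 6181056 to 12465508 counts in total, the next 3 held 7553046 to 13576482 and CLP 5 held 11972726.

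CLP 5 had the highest 5p share for both hairpins, although sham lies at opposite ends for them. For miR-574 its interval, 70.7% to 78.7%, overlapped those of CLP 4, 6 and 8. It therefore lay nearest to sham for miR-423 and farthest from sham for miR-574. CLP 5 also had the highest haemolysis index of the CLP libraries, the log2 ratio of the red cell miRNA miR-451a to miR-23a-3p, at 0.72 against -2.53 to -0.38 in the other 8 and -1.28 to 0.24 in sham. Its summed red cell markers (6 miRNAs in 5 entries) were 377497 CPM, the highest of a CLP range that began at 81523, against 157295 to 454479 in sham. Its summed striated muscle markers (7 entries) were the lowest in CLP, at 5022 CPM of a range up to 40714, against 481.8 to 7253 in sham. CLP 5 lay outside the sham range, given below, for the platelet (25275 CPM), hepatocyte (61983 CPM) and myeloid (2448 CPM) lists. For the lymphocyte list (24358 CPM) it lay inside. CLP 6 lay within the sham range of the haemolysis index, at -0.38, with a miR-423 5p share of 16.7%.

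Of all 426 tested miRNAs, 47.2% passed the edgeR adjusted p under 0.05, 25.4% higher and 21.8% lower in CLP, and the marker lists are to be read against these shares. Over all libraries, 0 red cell entries rose and 1 of 5 fell by the edgeR adjusted p, and 4 of 7 muscle entries rose and 0 fell. Platelet markers, still present in plasma described as platelet-free, summed to 44540 to 61019 CPM in sham and 25160 to 34538 in CLP, with 3 of 7 entries higher and 1 lower. The lower entry, miR-191-5p, averaged 37342 CPM in sham and 5450 in CLP, so the lower sum does not describe the platelet list as a whole. Among the higher entries, miR-24-3p averaged 11004 and 19713 CPM. Myeloid markers summed to 1479 to 2144 CPM in sham and 1833 to 4185 in CLP (2 of 5 higher, 0 lower). Lymphocyte markers summed to 18110 to 36783 and 10200 to 35130 CPM (1 of 4 higher, 2 lower), and hepatocyte markers to 22486 to 46075 and 14194 to 146646 CPM (0 of 4 either way). No marker was at 0 in all libraries. The part of these sources in the arm ratios was not tested.

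**Figure D4:**
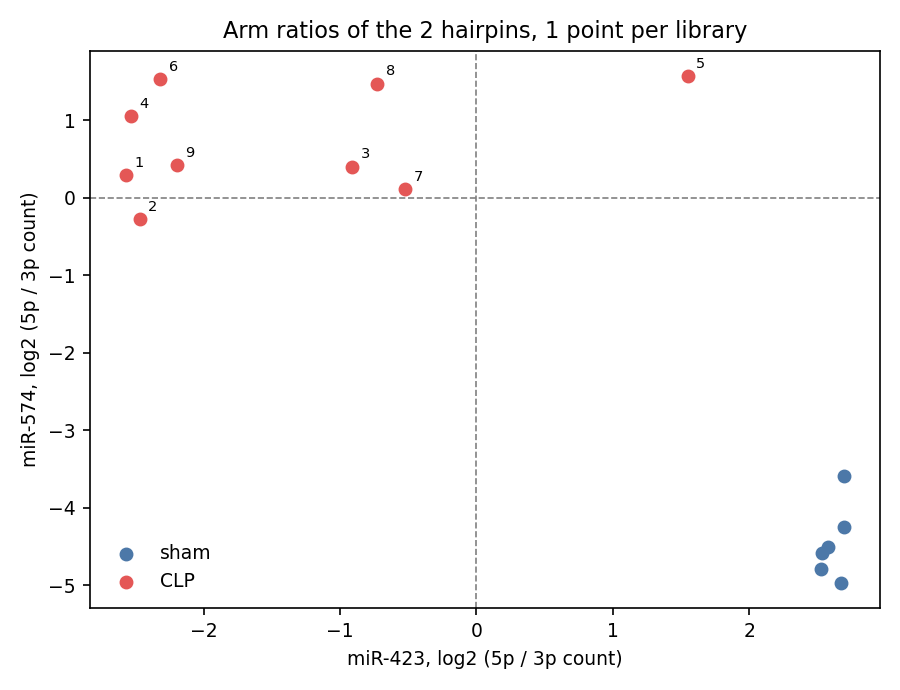
Log2 ratio of 5p to 3p counts of miR-423 (horizontal) and miR-574 (vertical), 1 point per library, with CLP libraries numbered. Sham libraries form a tight group at the lower right, and the CLP libraries spread along the horizontal axis with CLP 5 alone on the right of 0.

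Within groups, 10 relations were computed with exact two-sided permutation tests: those of the arm ratios with each other, with log2 total count, with the haemolysis index and with mean GC content, and those between the levels of the 2 arms. None passed after Benjamini-Hochberg adjustment over the 10, the lowest adjusted exact permutation p being 0.179 for Pearson's and 0.438 for Spearman's coefficient. Because the gaps leave sets of fewer than 6 libraries for both hairpins, and the levels of the arms rest on the same counts, no coefficient is given for any of the 10. The lowest unadjusted p, 0.0179 by exact permutation, was that of the miR-574 ratio with the haemolysis index in CLP, and it was 0.340 without CLP 5 and CLP 6. That of the miR-423 ratio with total count in CLP was 0.0972 by exact permutation (adjusted 0.324). It was 0.00218, unadjusted, without CLP 3 and CLP 6, the libraries with total counts farthest from the median, so its size depended on those libraries. Each relation in CLP was repeated without 2 libraries and these repeats were not adjusted, so nothing is read from them. Mean GC content of a library's miRNA reads was 46.3% ± 0.34 in sham (SD) and 45.5% ± 0.21 in CLP.

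The hairpins whose arm ratio was most like that of miR-574 over the 15 libraries, by Pearson r as a description, were miR-223 (0.94), miR-532 (0.88) and miR-339 (0.86). These values follow the gap between the groups, since within the 9 CLP libraries the same r were -0.26, -0.09 and 0.30. Those most like miR-423 were miR-221 (0.96), miR-191 (0.95) and miR-187 (0.92). The 4 CLP libraries with the highest miR-423 ratio, CLP 3, 5, 7 and 8, were also the 4 highest for miR-221, and 3 of them were among the 4 highest for miR-191 and for miR-187. Counting the 4 highest was chosen after these values were seen. For miR-574 the same count gave 1, 1 and 2 of 4 with miR-223, miR-532 and miR-339. Within CLP the r of miR-423 with miR-221, miR-191 and miR-187 were 0.87, 0.87 and 0.80. Without CLP 5 they were 0.79, 0.74 and 0.58. These hairpins were picked by r over libraries that include CLP, so the values within CLP are description only. For miR-221, clustered with miR-222 and known from activated and proliferating cells, the log2 ratio ran from -0.46 to 0.15 in sham and from -3.13 to -0.81 in CLP, with CLP 5 the highest.

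Of single miRNAs, those most like miR-423-5p over the 15 libraries in log2 CPM were miR-877-5p (r = 0.98), made from a short intron without Drosha, and miR-214-3p (0.96), from the noncoding transcript Dnm3os. miR-877-5p ran from 29.0 to 70.7 CPM in sham and from 0 to 10.04 in CLP, where CLP 5 was the highest. miR-214-3p ran from 277.2 to 832.2 CPM in sham and from 3.16 to 46.0 in CLP, again highest in CLP 5. For each of them the 4 highest CLP libraries were CLP 3, 5, 7 and 8, the same 4 as for miR-423-5p. Both were picked by r over the 15 libraries, which favours a shared order in CLP, so this is description only. Those most like miR-574-3p were miR-30c-5p (r = 0.98) and miR-455-3p (0.96), with r of 0.12 and 0.72 within CLP. The arms that were scarcer in sham had companions with a lower r over the 15 libraries. They were miR-338-5p (0.74) and miR-361-5p (0.73) for miR-574-5p. For miR-423-3p they were miR-191-3p (0.85) and miR-425-5p (0.84), which are cut from neighbouring hairpins of 1 transcript. In the same order, their r within CLP were 0.76, 0.67, 0.86 and 0.83. Those of miR-877-5p and miR-214-3p with miR-423-5p within CLP were 0.92 and 0.95. The r within CLP use libraries that also served the pick, so they are not a separate check.

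**Figure D5:**
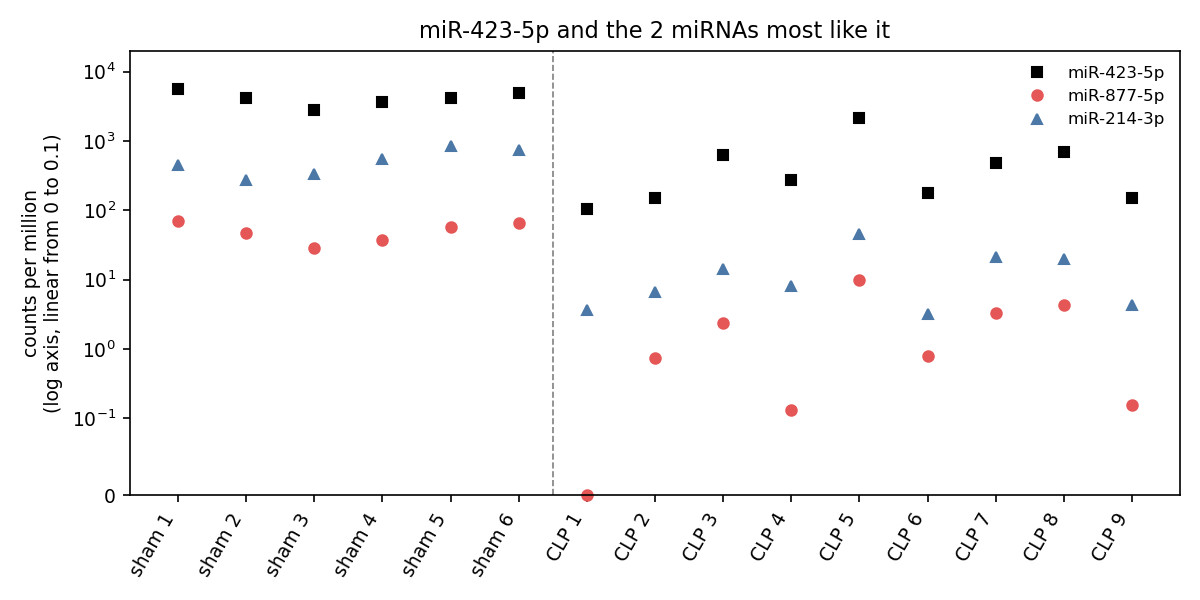
CPM of miR-423-5p (squares), miR-214-3p (triangles) and miR-877-5p (circles) in each library, on an axis that is logarithmic above 0.1 and linear below it. All 3 are lower in every CLP library than in any sham library, and CLP 5 is the highest CLP library for each, with miR-877-5p at 0 in CLP 1.

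miR-423-5p belongs to a set of miRNAs often used as references in plasma assays. Of the other 11 in the list, 3 rose (miR-103-3p, miR-24-3p and miR-425-5p) and 3 fell (miR-191-5p, miR-451a and miR-484) in CLP by edgeR's adjusted p under 0.05, and 5 did not pass (let-7i-5p, miR-16-5p, miR-23a-3p, miR-93-5p and miR-320-3p). The shares over all 426 miRNAs were 47.2% in either direction, 25.4% higher and 21.8% lower. The median log2 fold change of the 11 was 0.09, and that of all tested miRNAs 0.11. The nearest to 0 was miR-16-5p, a member of the miR-15 family abundant in blood cells, at 0.09 ± 0.23 (SE; edgeR adjusted p = 0.778). miR-425-5p, at 197.3 ± 28.9 CPM in sham (SD, n = 6) and 294.2 ± 79.2 in CLP (n = 9), changed by 0.58 ± 0.20 (edgeR adjusted p = 0.0221).

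A ratio to another miRNA of the same library removes the scaling. The log2 ratio of miR-423-5p was lower in CLP against each of the 11, and against 7 of them every CLP library lay below every sham library. That direction follows from how miR-423-5p was picked, as its log2 fold change (-2.97) lay below the lowest of the 11 (-2.78). No share over all miRNAs is given for such ratios, so they are a description only. Against miR-16-5p it averaged 1.32 ± 0.71 (SD) over the 6 sham libraries and -2.42 ± 1.42 over the 9 CLP libraries, so that the means differed by -3.74. The difference was largest against miR-103-3p (-5.47) and smallest against miR-191-5p (-0.69), where 6 of 9 CLP libraries lay below every sham library. Differences between 2 such ratios were not tested.

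The G and U repeat of miR-574-5p is rare among mouse miRNAs. The letters GUGUGUG, searched on the RNA strand as written, were found in 11 of 1679 mature sequences (0.655%) and in 3 of the 373 tested miRNAs with a sequence (0.804%). The other tested carriers were miR-206-3p (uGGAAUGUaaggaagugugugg), made in skeletal muscle, and miR-672-5p (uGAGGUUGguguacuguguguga), shown with their seeds in capitals to set their repeat beside that of miR-574-5p. miR-206-3p rose from 209.8 ± 198.1 CPM (SD) in sham to 1616 ± 898.8 in CLP, with a log2 fold change of 2.95 ± 0.50 and an edgeR adjusted p of 0.000146. miR-672-5p, at 3.18 ± 1.14 CPM in sham and 5.76 ± 3.08 in CLP, had a log2 fold change of 0.87 ± 0.40 and missed the threshold, with an edgeR adjusted p of 0.0776. Of all 426 tested miRNAs, 25.4% passed as higher in CLP. miR-206-3p also belongs to the striated muscle list, of which 4 of 7 entries rose. The part of the repeat in these changes was not tested.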

How the data were processed

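The authors deposited 1 table of expected counts, reads per mature miRNA not scaled for depth. Its name gives exceRpt, a small RNA pipeline, and reads were placed on mm10 according to the submitters' processing notes. Aligner, mismatches and annotation release are not given in the sources used here. RNA came from 100 ul of plasma and libraries from a ligation kit, per the labels' protocols. Of the entries 4.56% were not whole, and they were rounded for testing. Entries passing filterByExpr were scaled by TMM and tested with edgeR 4.0.16 (R 4.3.3), robust quasi-likelihood, two-sided, with Benjamini-Hochberg adjustment at 0.05. Arm ratios of 93 hairpins were tested in edgeR with a library term and an arm by group term. SE was the log2 fold change over the square root of F. The fits were also run on simulated counts in which the arms of a hairpin were drawn independently. That run does not settle the error rates of the arm test where arms vary together. Ratios used a pseudocount of 0.5.

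The 4 arms and the lists were chosen with earlier results of these data known. Named miRNAs were the 4 arms, carriers of their seeds or of GUGUGUG, the most alike, the largest arm shifts, the plasma references and neighbours within 10 kb. Libraries of a group differed by a chi-square of at least 234.5 per degree of freedom, far above sampling noise, and each was counted once. A mature sequence was found for 373 of 426 tested miRNAs (87.6%), which served the GC trend, but for both arms of only 73 of 93 hairpins (78.5%), so a check of arm GC across hairpins was void. Alternatives were DESeq2 1.42.0, limma 3.58.1, other scalings, filters, pseudocounts, thinning, the replicate block and leaving out each library. Leaving out CLP 1 and CLP 5 together, and leaving out CLP 7, 8 and 9 without a block, were chosen after seeing the data.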

Additional observations from a re-analysis of the deposited data

Results flagged for a closer look

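In CLP 5, miR-423-5p stood at 2172 CPM, where the next CLP library held 698.8, a gap of 0.71 of the CLP range against Dixon's 95% value of 0.493 for 9 libraries. That gap was taken on the linear CPM scale. Log2 levels were not tested in this way, so this flag may depend on the scale. The miR-423 log2 ratio of 5p to 3p in CLP 5 was 1.55, where the next was -0.52, a gap of 0.50 of the range. Both values share the same 5p count. Of 12 groups of values tested (4 arms and 2 ratios in each group), chance sets apart about 1 in 20.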

How the results depend on the processing

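The difference in arm ratio kept its sign for both hairpins and moved by less than 1 SD under all alternatives run. When 1 library was left out, it ran for miR-574 from 5.08 (no CLP 5) to 5.35 (no sham 5). For miR-423 the same range was -4.40 (no CLP 5) to -3.88 (no CLP 1). With the GC trend removed it was 4.77 and -4.35, after thinning to the smallest library 5.35 and -4.02, and without both CLP 1 and CLP 5 it was 5.12 and -4.29. Replicate numbers 1 to 6 occur in both groups. The fit with them as a block holds 12 libraries, since CLP 7, 8 and 9 have no partner. On these 12 the differences were 5.21 and -4.16 with or without the block. That equality was fixed in advance, since each number holds 1 library of each group. There, 152 of 402 miRNAs and 34 of 89 hairpins passed in edgeR with the block, and 179 and 37 without it, against 201 of 426 and 49 of 93 over all 15 libraries. Libraries of the same number did not deviate together (r from -0.15 to -0.03, none closest to its own number). No pairing was thus seen, though a check on so few libraries could miss one. Without a filter 307 of 1182 miRNAs passed, and with the stricter filter 27 of 46 hairpins, as other numbers of entries were tested. Scaling by library size moved the median log2 fold change of all miRNAs by -0.23 and gave 90 higher and 126 lower passing miRNAs, against 108 and 93. The miR-574 shares are limited by depth, with as few as 30 reads of the 5p arm.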
